A study of Homo sapiens with 4 samples.

Results

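The transcripts described here are those of 32 human genes that move, bind or sense cellular zinc: 14 importers of the SLC39A family, 10 exporters of the SLC30A family, the transcription factor MTF1 and 7 metallothioneins. They were chosen by name, for the role of zinc in prostate epithelium, as the probe sets that the array's annotation assigned to exactly 1 of these genes. This gave 71 of the 54675 probe sets on the array. Of these, 13 were marked _x_at, the manufacturer's sign that a probe set can also hybridise to other transcripts. Each of the 32 genes had at least 1 probe set, among 19775 genes measured. The RNA came from PC3, an established human line from a bone metastasis of a prostate cancer, grown in RPMI with fetal bovine serum. One group received COUP-TFII siRNA (2 arrays) and the other a control siRNA (2 arrays), each at 40 nM and collected at 48 h. COUP-TFII is an orphan nuclear receptor, and the comparison addressed which transcripts change after its siRNA. All values describe 1 cell line, and the labels say neither whether each siRNA was a single sequence or a pool nor whether replicates were separate transfections. The p-values therefore reflect how far these 4 arrays vary, and that variation may be technical. The target's own transcript was not analysed here, so the siRNA labels were not checked against it.

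SLC39A proteins, also called ZIP, carry zinc into the cytosol from outside the cell or out of organelles. SLC30A proteins, also called ZnT, carry it the other way, out of the cell or into vesicles, the Golgi and other compartments. Metallothioneins are small cysteine-rich proteins that bind zinc and copper, and MTF1 is a zinc-sensing factor that activates metallothionein genes and SLC30A1 through metal response elements in their promoters. Normal prostate epithelium holds far more zinc than most tissues, where it inhibits mitochondrial aconitase and lets citrate be secreted, and prostate cancers lose much of that zinc.

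Probe set intensities on the authors' linear scale ran from 0.61 to 15890, with array medians from 31.7 to 32.9. Arrays correlated across probe sets at r = 0.9880 within the COUP-TFII siRNA group and 0.9871 within the control siRNA group, and at 0.9750 to 0.9793 between groups. For ACTB, the 3′ over 5′ ratio of the array's control probe sets, by which RNA quality is judged, was 1.44 ± 0.03 in COUP-TFII siRNA arrays and 1.67 ± 0.22 in control siRNA arrays (SD, n = 2 each), without overlap. That of GAPDH lay slightly the other way, at 0.990 ± 0.005 in COUP-TFII siRNA arrays and 0.971 ± 0.021 in control siRNA arrays (SD, n = 2 each). The part of these ratios in the results was not tested. All 7 epithelial markers were bright on every array, with summed intensities of 42427 to 43206 in COUP-TFII siRNA cells and 41325 to 41698 in control siRNA cells. Of these, the keratins KRT7, KRT8 and KRT18 were higher and the adhesion genes EPCAM, CDH1 and CLDN4 lower, with EPCAM and CLDN4 turning sign (0.04 and 0.05) when arrays were centred on the median of housekeeping genes. The prostate secretory genes KLK3 and KLK2 lay between 8.56 and 25.9 on all 4 arrays. Of 5 luminal prostate genes 1 passed, the protease TMPRSS2, with 391.2 and 392.0 in COUP-TFII siRNA cells, against 132.1 and 156.5 in control siRNA cells. Of the markers of other cell types, 1 of 6 fibroblast genes passed (COL1A1, higher). The 6 had a summed intensity of 1100 to 1115 in COUP-TFII siRNA cells and 702.4 to 793.0 in control siRNA cells. Most of that sum was COL1A1, with 961.6 and 949.6 in COUP-TFII siRNA cells, against 598.6 and 540.3 in control siRNA cells. The median log2 fold change of the 6 was -0.10. None of 5 leukocyte genes passed in limma (0 at an unadjusted p of 0.05), and their sums overlapped, at 95.3 to 97.9 in COUP-TFII siRNA cells and 93.6 to 104.9 in control siRNA cells. None of 5 endothelial genes passed either (2 higher at an unadjusted p of 0.05), with sums of 232.4 to 285.7 in COUP-TFII siRNA cells and 199.1 to 207.6 in control siRNA cells. The part of these markers in the results was not tested.

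After COUP-TFII siRNA, 3 zinc transporters fell by more than 2-fold: the importer SLC39A6 and the exporters SLC30A7 and SLC30A9. The importer SLC39A8 fell less, the exporter SLC30A1 rose by 1.35-fold, and 5 of 7 metallothioneins rose by 1.15-fold to 1.32-fold. Differences were tested with limma on log2(intensity + 16), and a gene passed at an adjusted p of 0.05 over all genes. Folds are on that scale, which understates changes of dim genes. By this test 13 of the 32 genes passed (40.6%), against 23% of all genes. Higher were 8 (12.7% of all genes) and lower were 5 (10.3% of all genes). The median log2 fold change of the 32 was 0.04, against 0.01 over all genes. Dim genes rarely pass, and 8 of the 32 had a mean intensity under 32. Among the other 24, 13 passed (54.2%), against 34.8% of all genes of that brightness. With a 1.5-fold minimum added, 4 were lower (4.6% of all genes) and 0 higher (4.62% of all genes), so 4 of 32 passed, against 9.22% of all genes, and 9 of the 32 were higher at an unadjusted p of 0.05. The falls of 4 transporters were thus the larger changes, and each of the 8 rises was under 1.5-fold.

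The groups did not overlap for 23 of the 32 genes, 13 of them higher and 10 lower in COUP-TFII siRNA cells. Over all genes 57.5% did not overlap, 30.8% higher and 26.7% lower. With 2 arrays against 2, an exact permutation test of 1 gene cannot give a two-sided p under 0.333. At the level of single probe sets, 19 of 71 passed, against 12.2% of all probe sets. Of these, 9 were higher (6.51% of all probe sets) and 10 lower (5.67%). Without overlap were 21 probe sets on the higher side (26.3% of all) and 22 on the lower side (24.1%). With any 1 array left out, 3 or 4 of the genes passed as higher in place of 8, and 4 or 5 as lower. Over all genes 882 to 1222 then passed as higher in place of 2519, and 886 to 1370 as lower in place of 2039. Counts also depended on scale. Centring arrays on the median of 12 housekeeping genes adds 0.28 to the log2 fold change of every gene. Then 13 of the 32 genes were higher and 4 lower, against 7313 and 973 of the 19775 genes tested. That median lies between SDHA and HPRT1, which both passed, with log2 fold changes of 0.20 and -0.77. Every value given with housekeeping median centring thus rests on SDHA and HPRT1. Centring on the mean of the 12 genes adds 0.0047. Then 8 of the 32 genes were higher and 6 lower, against 2674 and 2082 of all genes. In these bulk samples, fewer cells of a type and less RNA per cell cannot be told apart.

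**Figure D1:**
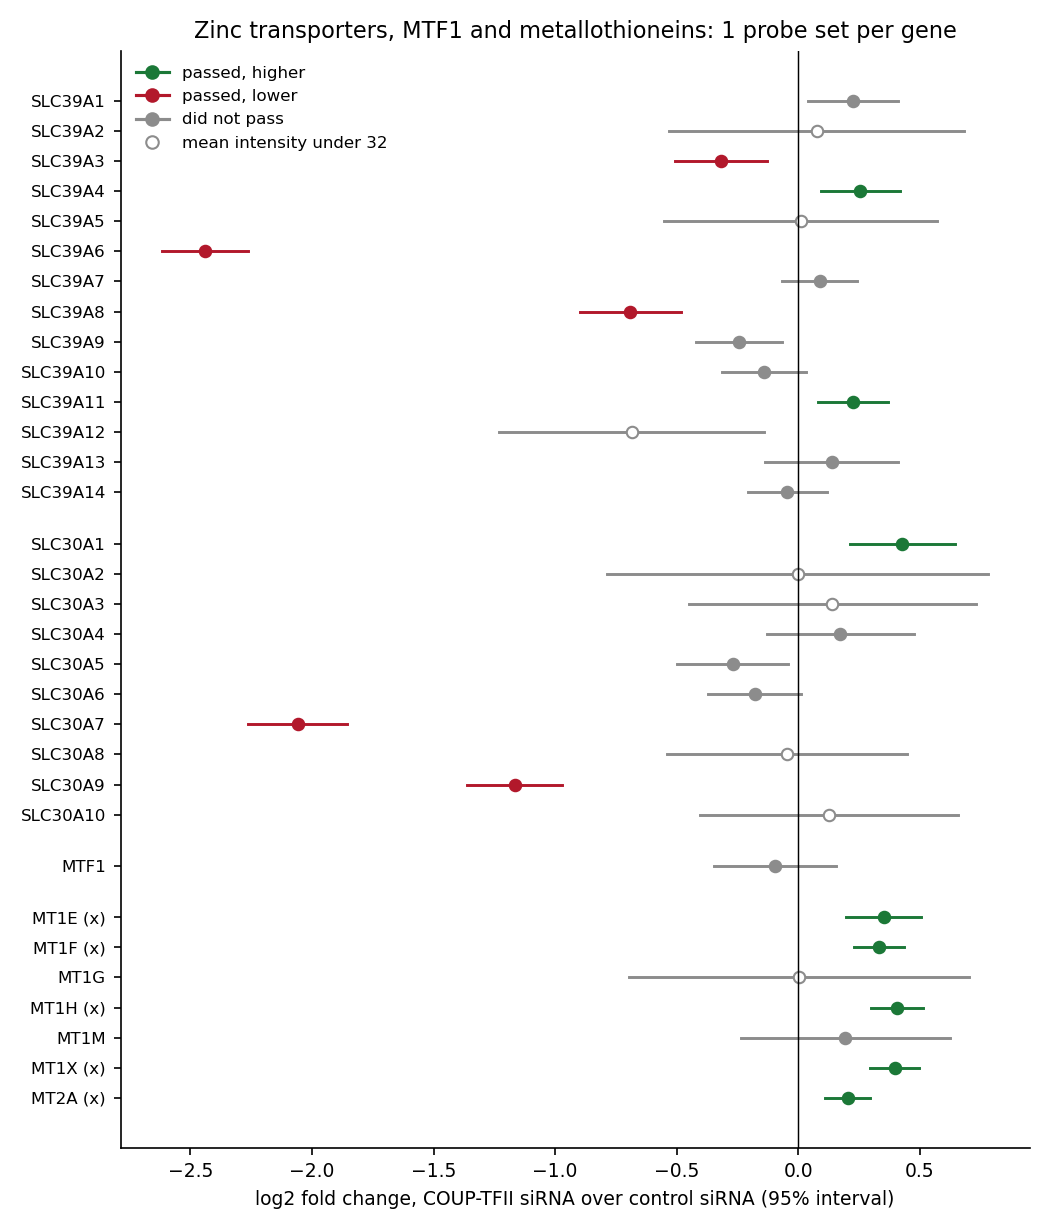
Log2 fold change of COUP-TFII siRNA over control siRNA cells (x axis) with its 95% limma interval for each of the 32 genes, grouped from top to bottom as importers, exporters, MTF1 and metallothioneins. Green marks the 8 genes that passed as higher, red the 5 that passed as lower and grey the others, open circles mark a mean intensity under 32, and (x) marks genes represented by an _x_at probe set; SLC39A6, SLC30A7 and SLC30A9 lie far left of the rest, at -2.44, -2.06 and -1.17.

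Among the 14 importers, 3 fell and 2 rose, and 9 were not called. That is 35.7% called, against 23% of all genes and 34.8% of those of mean intensity at least 32. The importers had a median log2 fold change of -0.02. SLC39A6, known as ZIP6 or LIV-1, is a plasma membrane importer first described as an oestrogen-induced gene of breast cancer cells. Its brightest probe set (202088_at) read 203.9 and 198.2 in COUP-TFII siRNA cells, against 1204 and 1119 in control siRNA cells. Both arrays of the COUP-TFII siRNA group were far below both controls, and the group means were 201.1 ± 4.0 in COUP-TFII siRNA cells and 1162 ± 60 in control siRNA cells (SD, n = 2 each). The log2 fold change was -2.44 ± 0.08 (SE; limma adjusted p = 6.04e-07), a level 5.42-fold lower, and only 4 of the 19775 genes had a more negative value. All 4 probe sets of the gene fell in the fit over probe sets. The second (202089_s_at) read 49.7 and 46.3 in COUP-TFII siRNA cells and 338.1 and 322.5 in control siRNA cells, again a log2 fold change of -2.44. The dimmer 1556551_s_at and 1555460_a_at fell by 1.37 and 1.19 on the log2 scale.

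SLC39A8, or ZIP8, imports zinc and manganese. Its brightest probe set (209267_s_at) read 413.3 and 352.7 in COUP-TFII siRNA cells, against 637.4 and 615.7 in control siRNA cells. The groups did not overlap, and the log2 fold change was -0.69 ± 0.09 (limma adjusted p = 0.000678), a level 1.61-fold lower. It was the only 1 of the gene's 6 probe sets that passed. The next brightest (219869_s_at) read 100.5 and 77.2 in COUP-TFII siRNA cells, against 102.7 and 124.3 in control siRNA cells, with a log2 fold change of -0.31 that did not pass, and the others did not exceed 20.7 on any array. With housekeeping median centring its log2 fold change was -0.41. Averaged over all 6 probe sets, the gene had a log2 fold change of -0.22 and did not pass (limma adjusted p = 0.433).

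SLC39A3, or ZIP3, is a plasma membrane zinc importer. It had 349.5 and 374.4 in COUP-TFII siRNA cells, against 464.3 and 445.8 in control siRNA cells, a log2 fold change of -0.32 ± 0.08 (limma adjusted p = 0.0234). Its second probe set (229677_at) lay the other way without passing, at 71.3 and 83.1 in COUP-TFII siRNA cells, against 64.9 and 56.2 in control siRNA cells. The call was lost with any 1 array left out (adjusted p from 0.0666 to 0.169 in limma) and with housekeeping median centring, where the log2 fold change was -0.04.

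Both importers that rose did so by a small amount. SLC39A4, or ZIP4, is the importer mutated in the inherited zinc deficiency acrodermatitis enteropathica. It had 1731 and 1883 in COUP-TFII siRNA cells, against 1426 and 1600 in control siRNA cells (log2 fold change 0.25 ± 0.07, limma adjusted p = 0.0314). SLC39A11, or ZIP11, had 894.6 and 901.9 in COUP-TFII siRNA cells, against 779.4 and 754.4 in control siRNA cells (log2 fold change 0.22 ± 0.06, limma adjusted p = 0.0324). Their calls did not hold over all probe sets (adjusted p of 0.0717 for SLC39A4 and 0.0509 for SLC39A11 in limma) or in any of the 4 fits without 1 array.

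SLC39A1, or ZIP1, is regarded as the main zinc importer of prostate cells. It had 501.7 and 481.7 in COUP-TFII siRNA cells, against 434.6 and 403.0 in control siRNA cells. Both arrays of the COUP-TFII siRNA group were higher, but the log2 fold change of 0.22 ± 0.08 did not pass (limma adjusted p = 0.083), and its 95% interval ran from 0.04 to 0.41. SLC39A9, or ZIP9, another zinc importer, lay at the threshold on the other side. It had 1140 and 979.3 in COUP-TFII siRNA cells, against 1264 and 1246 in control siRNA cells (log2 fold change -0.24 ± 0.08, limma adjusted p = 0.0506). SLC39A10, the closest relative of SLC39A6, had 780.6 and 705.1 in COUP-TFII siRNA cells, against 850.6 and 790.7 in control siRNA cells. It was lower without overlap but did not pass (log2 fold change -0.14, limma adjusted p = 0.245). Its interval, from -0.31 to 0.03, does not reach the -2.44 of SLC39A6. With housekeeping median centring the sign turned for SLC39A9, at 0.04, and for SLC39A10, at 0.14.

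The other importers showed no call. SLC39A7, which releases zinc from the endoplasmic reticulum and Golgi, had 834.6 and 829.3 in COUP-TFII siRNA cells, against 752.5 and 813.1 in control siRNA cells. SLC39A14, a zinc, iron and manganese importer, had 1479 and 1294 in COUP-TFII siRNA cells, against 1409 and 1448 in control siRNA cells, and SLC39A13 had 183.0 and 191.7 in COUP-TFII siRNA cells, against 180.5 and 158.0 in control siRNA cells. Their log2 fold changes were 0.09, -0.05 and 0.14. SLC39A2, SLC39A5 and SLC39A12 were dim on every array, so little can be read from them. SLC39A12 had 9.63 and 2.81 in COUP-TFII siRNA cells, against 21.2 and 17.6 in control siRNA cells, without overlap but short of the threshold (limma adjusted p = 0.0735), and SLC39A2 and SLC39A5 had log2 fold changes of 0.07 and 0.01.

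Among the 10 exporters, 2 fell and 1 rose, and 7 were not called. That is 30% called, against 23% of all genes and 34.8% of those of mean intensity at least 32. The exporters also had a median log2 fold change of -0.02. SLC30A7, or ZnT7, loads zinc into the Golgi and early secretory pathway. Its brightest probe set (226601_at) read 268.3 and 236.2 in COUP-TFII siRNA cells, against 1157 and 1044 in control siRNA cells. The group means were 252.2 ± 22.7 in COUP-TFII siRNA cells and 1100 ± 80 in control siRNA cells (SD, n = 2 each), and the log2 fold change was -2.06 ± 0.09 (limma adjusted p = 2.14e-06), a level 4.16-fold lower. Only 17 of the 19775 genes had a more negative value. A second probe set (226217_at) fell alike, with 199.0 and 195.9 in COUP-TFII siRNA cells, against 777.1 and 682.5 in control siRNA cells (log2 fold change -1.80). The third and dimmest (239596_at) was also lower on both arrays, at 41.4 and 44.7 in COUP-TFII siRNA cells, against 61.6 and 73.0 in control siRNA cells, but its log2 fold change of -0.49 did not pass.

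SLC30A9, or ZnT9, exports zinc from mitochondria. It had 435.2 and 381.4 in COUP-TFII siRNA cells, against 974.5 and 894.9 in control siRNA cells. The group means of 408.3 ± 38.1 in COUP-TFII siRNA cells and 934.7 ± 56.3 in control siRNA cells (SD, n = 2 each) were far apart against the spread, with a log2 fold change of -1.17 ± 0.09 (limma adjusted p = 2.6e-05). Its other probe set (229500_at) read 77.0 and 69.1 in COUP-TFII siRNA cells, against 94.5 and 109.0 in control siRNA cells, lower without overlap but not past the threshold. The genes that fell most thus sit, by their known sites of action, at the cell surface (SLC39A6), the Golgi (SLC30A7) and the mitochondria (SLC30A9).

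**Figure D2:**
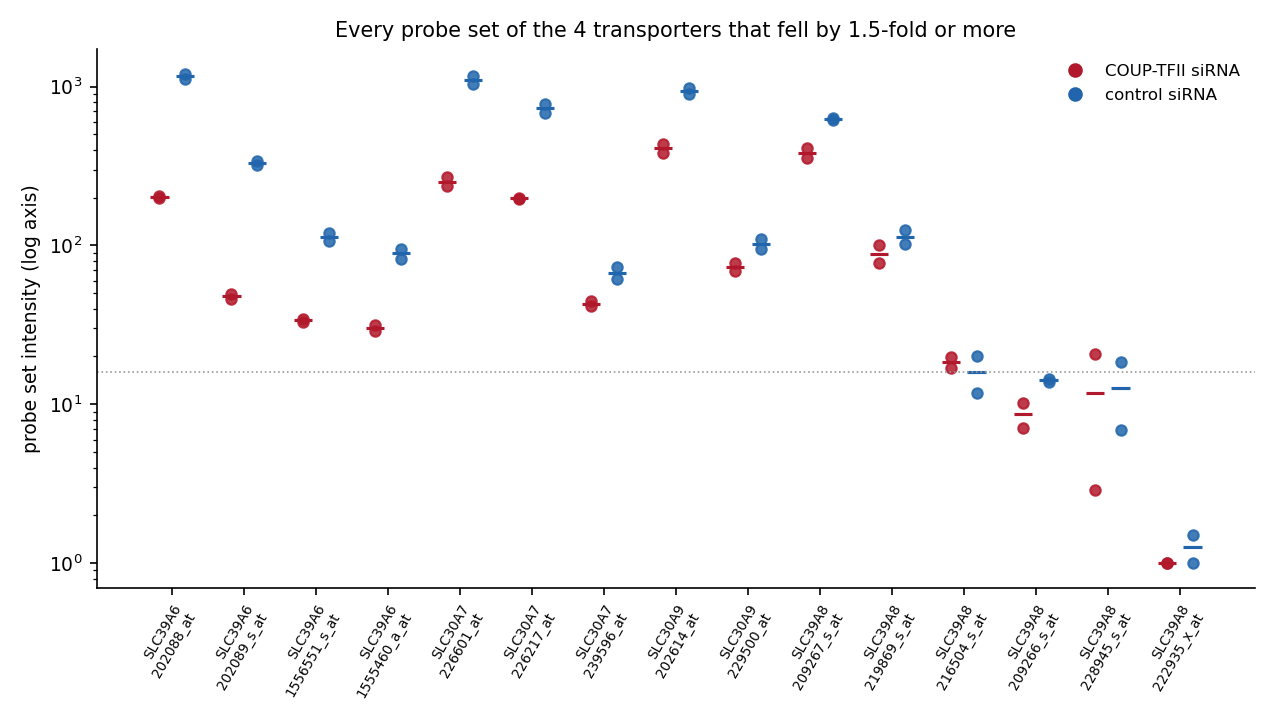
Intensity on a log axis (y) of every probe set of SLC39A6, SLC30A7, SLC30A9 and SLC39A8 (x) on each array, COUP-TFII siRNA in red to the left and control siRNA in blue to the right, with bars at the group means and a dotted line at 16, the constant added before taking logs. All 4 probe sets of SLC39A6 separate by group, whereas 3 of the 6 probe sets of SLC39A8 do, and 4 of the 6 lie near or under the dotted line.

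SLC30A1, or ZnT1, is the exporter of the plasma membrane and a known MTF1 target. It was the only exporter that rose, with 607.4 and 602.1 in COUP-TFII siRNA cells, against 489.1 and 405.6 in control siRNA cells. The log2 fold change was 0.43 ± 0.10 (limma adjusted p = 0.0112). A second probe set (228181_at) was also higher without overlap, at 113.4 and 109.2 in COUP-TFII siRNA cells, against 77.4 and 84.9 in control siRNA cells, but did not pass, and the third was near 1 on all arrays. Without 1 array the call held in 1 of 4 fits, the one without control siRNA replicate 1 (limma adjusted p = 0.0264), and the highest adjusted p was 0.134. Averaged over all its probe sets, the gene had a log2 fold change of 0.28 and did not pass.

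SLC30A5 and SLC30A6 encode partners that form a heterodimer in the early secretory pathway. SLC30A5 had 427.4 and 360.8 in COUP-TFII siRNA cells, against 500.7 and 454.5 in control siRNA cells, and did not pass (log2 fold change -0.27 ± 0.10, limma adjusted p = 0.0917; with housekeeping median centring the sign turned, at 0.01). Its probe sets differed: 218989_x_at fell, with 618.1 and 554.5 in COUP-TFII siRNA cells, against 729.9 and 752.9 in control siRNA cells, while 220181_x_at read 270.9 and 221.2 in COUP-TFII siRNA cells, against 210.3 and 183.3 in control siRNA cells, higher without passing. SLC30A6 had 579.1 and 504.4 in COUP-TFII siRNA cells, against 608.1 and 620.6 in control siRNA cells. Its log2 fold change of -0.18 did not pass and turned to 0.10 with housekeeping median centring. SLC30A4, an endosomal transporter, had 140.3 and 144.6 in COUP-TFII siRNA cells, against 132.1 and 117.4 in control siRNA cells, and did not pass either. SLC30A2, SLC30A3, SLC30A8 and SLC30A10 ranged from 1.11 to 18.4 in COUP-TFII siRNA cells and from 1 to 21.2 in control siRNA cells, and none of them passed (0 at an unadjusted p of 0.05 in limma).

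MTF1 itself did not pass. Its brightest probe set read 347.6 and 295.5 in COUP-TFII siRNA cells, against 368.9 and 320.6 in control siRNA cells, overlapping, with a log2 fold change of -0.10 and a 95% interval from -0.35 to 0.15. With housekeeping median centring the sign turned, at 0.19, still without passing. Its other probe sets had log2 fold changes of 0.06 and 0.12 and overlapped as well.

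The 7 metallothioneins had a median log2 fold change of 0.33, and 5 of them rose while MT1G and MT1M did not pass. That is 71.4% called, against 23% of all genes and 34.8% of those of mean intensity at least 32. MT2A, the most widely expressed human metallothionein, had 12887 and 12867 in COUP-TFII siRNA cells, against 10977 and 11404 in control siRNA cells. The rise was small but larger than the spread between arrays (log2 fold change 0.20 ± 0.04, limma adjusted p = 0.00628). MT1X had 6935 and 6966 in COUP-TFII siRNA cells, against 5158 and 5397 in control siRNA cells (log2 fold change 0.40 ± 0.04, limma adjusted p = 0.000266). MT1H had 5963 and 6052 in COUP-TFII siRNA cells, against 4413 and 4656 in control siRNA cells (log2 fold change 0.41 ± 0.05, limma adjusted p = 0.00031). MT1F had 5230 and 5127 in COUP-TFII siRNA cells, against 4045 and 4174 in control siRNA cells (log2 fold change 0.33 ± 0.04, limma adjusted p = 0.000783). In each of these 4 genes both COUP-TFII siRNA arrays were above both control siRNA arrays. The same held for MT1E, with 3605 and 3217 in COUP-TFII siRNA cells, against 2557 and 2785 in control siRNA cells (log2 fold change 0.35 ± 0.07, limma adjusted p = 0.0053). MT1F, MT1H and MT1X also passed in each of the 4 fits without 1 array. MT2A passed in none of them (limma adjusted p from 0.0586 to 0.156), and MT1E passed in 1, the fit without COUP-TFII siRNA replicate 2. Averaged over its 2 probe sets, MT1E had a log2 fold change of 0.07 and did not pass.

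All 5 of these genes were represented by _x_at probe sets. Human metallothionein messages are alike in sequence, so these probe sets may share targets, and the members cannot be taken as told apart by them. Probe sequences were not compared here. Of the 9 metallothionein _x_at probe sets 8 rose and 0 fell (0 lower at an unadjusted p of 0.05 in limma), around a median of 0.38 in log2 fold change, against 6.63% higher and 5.75% lower of all 4207 _x_at probe sets on the array. They may count the same molecules more than once. The extra probe sets of MT1X (204326_x_at, 4928 and 5115 in COUP-TFII siRNA cells, against 3349 and 3629 in control siRNA cells) and MT1F (213629_x_at, 1052 and 1086 in COUP-TFII siRNA cells, against 670.9 and 643.9 in control siRNA cells) rose by log2 fold changes of 0.52 and 0.69. The 1 that did not pass was a second probe set of MT1E, at 102.0 and 136.5 in COUP-TFII siRNA cells, against 116.7 and 166.0 in control siRNA cells.

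The 2 metallothionein probe sets without that mark did not pass. MT1M had 47.3 and 48.4 in COUP-TFII siRNA cells, against 42.4 and 37.4 in control siRNA cells, higher without overlap (log2 fold change 0.19 ± 0.19, limma adjusted p = 0.553). MT1G is represented by a dim probe set with 25.7 and 22.0 in COUP-TFII siRNA cells, against 12.6 and 39.2 in control siRNA cells, where the control arrays alone span the whole range. Its _x_at probe set read 5505 and 5434 in COUP-TFII siRNA cells, against 4124 and 4277 in control siRNA cells, and rose (log2 fold change 0.38 ± 0.05, limma adjusted p = 0.00209 over all probe sets). The metallothionein calls thus rest on probe sets that can cross-hybridise.

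**Figure D3:**
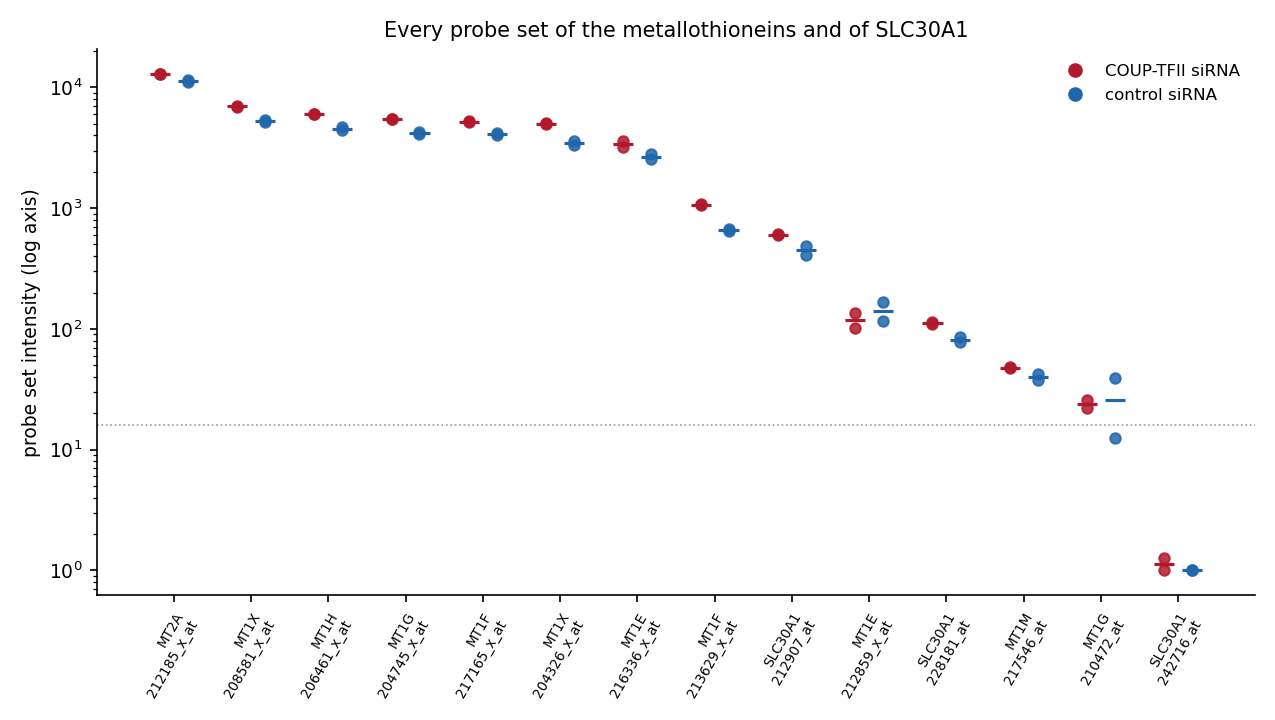
Intensity on a log axis (y) of every probe set of the 7 metallothioneins and of SLC30A1 (x), ordered by mean, on each array, with COUP-TFII siRNA in red to the left, control siRNA in blue to the right, bars at the group means and a dotted line at 16, the constant added before taking logs. The 8 metallothionein probe sets that rose are bright and carry the _x_at mark, and the red points lie slightly above the blue ones.

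The 250 bases before the gene start are shown for 3 metallothioneins that rose, for SLC30A1, which also rose, and for SLC39A6, which fell most, since MTF1 acts through metal response elements in such promoters. The sequences are those of RefSeq (GRCh38.p14), written 5′ to 3′ on the strand of the gene, and capitals mark each match to TGCACNC or TGCGCNC, the core of the metal response element, on either strand. The windows are MT2A, chr16:56608334-56608583, plus strand; MT1H, chr16:56669564-56669813, plus strand; MT1X, chr16:56682220-56682469, plus strand; SLC30A1, chr1:211579162-211579411, minus strand; and SLC39A6, chr18:36129341-36129590, minus strand.
MT2A: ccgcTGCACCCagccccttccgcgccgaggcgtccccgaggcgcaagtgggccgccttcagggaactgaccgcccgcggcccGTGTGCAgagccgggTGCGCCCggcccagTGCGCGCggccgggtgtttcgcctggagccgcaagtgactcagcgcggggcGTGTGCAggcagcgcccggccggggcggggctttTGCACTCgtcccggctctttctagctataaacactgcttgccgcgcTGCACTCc
MT1H: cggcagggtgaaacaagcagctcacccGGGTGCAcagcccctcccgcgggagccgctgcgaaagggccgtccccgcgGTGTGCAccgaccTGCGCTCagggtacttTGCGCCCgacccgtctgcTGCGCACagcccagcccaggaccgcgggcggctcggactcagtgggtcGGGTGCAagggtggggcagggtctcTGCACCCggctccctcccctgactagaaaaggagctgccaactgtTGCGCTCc
MT1X: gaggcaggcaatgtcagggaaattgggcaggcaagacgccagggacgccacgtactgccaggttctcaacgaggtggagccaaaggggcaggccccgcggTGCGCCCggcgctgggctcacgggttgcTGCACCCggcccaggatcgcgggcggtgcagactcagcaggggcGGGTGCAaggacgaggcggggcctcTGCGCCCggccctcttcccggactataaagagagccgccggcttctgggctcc
SLC30A1: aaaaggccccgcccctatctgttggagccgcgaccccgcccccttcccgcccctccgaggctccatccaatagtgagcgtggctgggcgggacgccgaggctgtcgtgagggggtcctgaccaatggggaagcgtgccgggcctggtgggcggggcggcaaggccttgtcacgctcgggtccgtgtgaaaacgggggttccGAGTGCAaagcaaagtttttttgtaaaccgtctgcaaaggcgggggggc
SLC39A6: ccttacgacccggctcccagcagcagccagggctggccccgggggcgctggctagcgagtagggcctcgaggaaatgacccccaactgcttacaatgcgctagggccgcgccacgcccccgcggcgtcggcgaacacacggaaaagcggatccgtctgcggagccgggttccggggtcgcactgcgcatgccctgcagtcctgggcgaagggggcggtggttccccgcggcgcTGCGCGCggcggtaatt

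MT1H held 8 matches, MT2A 7 and MT1X 4, whereas SLC30A1 and SLC39A6 held 1 each. No matches overlapped. MT1H and MT1X had matches starting at the same positions, 78 and 53 bases before the start, and MT1H and MT2A both had one 8 bases before it. RefSeq windows were used for 25 of the 32 genes, 34 windows in all, and only 3 of the 7 metallothioneins were among them. Any window of the 32 genes on chromosome 8 was set aside, a filter not applied to all windows searched. At least 1 match was present in 13 of the 25 genes, against 24.8% of the 35116 windows searched. At least 3 were present in 4 genes, MT1H, MT2A, MT1X and the dim exporter SLC30A2, against 1.58% of all windows. A gene can have several windows, so the shares of genes and of windows are not on the same base. AGGTCA, a short site that nuclear receptors such as COUP-TFII can bind, was present in windows of SLC30A7, SLC39A1 and SLC39A12, and in 12.1% of all windows. A direct repeat of AGGTCA with 1 base between the copies was in none of these windows and in 0.0171% of all windows. A match describes the letters of a window and is no evidence of binding, and its absence says nothing about the factor.

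**Figure D4:**
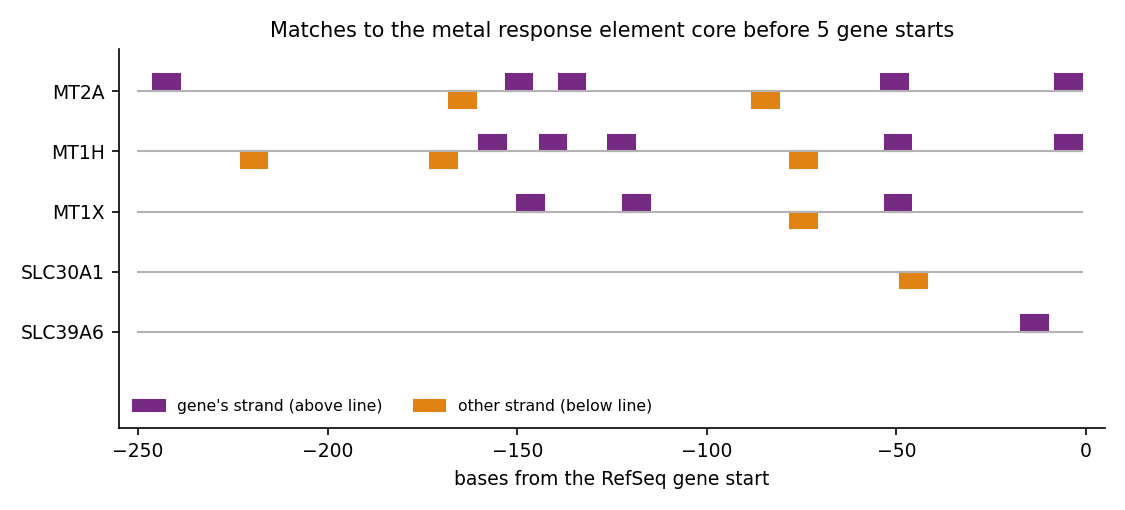
Position in bases from the RefSeq gene start (x) of each match to the metal response element core in the 250 bases before MT2A, MT1H, MT1X, SLC30A1 and SLC39A6, with matches on the gene's strand in purple above the line and on the other strand in orange below it. The 3 metallothioneins carry 7, 8 and 4 matches along the window, and SLC30A1 and SLC39A6 carry 1 each, within 50 bases of the start.

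Other genes that MTF1 or metals are known to induce, partly from work in mouse, were mixed. Of 8 such genes 3 rose and 2 fell (62.5% called, against 23% of all genes and 34.8% of those of mean intensity at least 32), around a median of 0.18 in log2 fold change. HMOX1, the stress-induced haem oxygenase, had 215.3 and 232.3 in COUP-TFII siRNA cells, against 86.0 and 90.4 in control siRNA cells (log2 fold change 1.20 ± 0.13, limma adjusted p = 0.0002). SELENOW, a small selenoprotein, rose by 0.65 on the log2 scale and GCLC, a subunit of the rate-limiting enzyme of glutathione synthesis, rose by 0.23. NDRG1, a stress and differentiation gene, fell, with a log2 fold change of -0.29 that became -0.0071 with housekeeping median centring. Of 9 other genes of zinc handling 1 rose and 1 fell (22.2% called). The gene that rose was CSNK2A2, a catalytic subunit of casein kinase 2, which is known to open SLC39A7 by phosphorylation, with 669.9 and 567.7 in COUP-TFII siRNA cells, against 487.5 and 441.1 in control siRNA cells. The gene that fell was SLC11A2, the divalent metal importer DMT1, with 1329 and 1196 in COUP-TFII siRNA cells, against 1653 and 1592 in control siRNA cells (log2 fold change -0.36 ± 0.07, limma adjusted p = 0.0042; -0.077 with housekeeping median centring).

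Of 9 copper genes 4 rose and 0 fell (44.4% called), with a median log2 fold change of 0.16. At an unadjusted p of 0.05 in limma, 1 copper gene was lower. For this list and the next, the shares to compare are 23% of all genes and 34.8% of those of mean intensity at least 32. ATP7A, the copper exporter of the Golgi and plasma membrane, had 184.0 and 187.9 in COUP-TFII siRNA cells, against 122.1 and 106.4 in control siRNA cells. CCS, which loads copper into superoxide dismutase, had 408.2 and 390.6 in COUP-TFII siRNA cells, against 269.6 and 256.3 in control siRNA cells. Their log2 fold changes were 0.64 and 0.57, and those of the chaperones ATOX1 and SCO2 were 0.36 and 0.32. Of 16 iron and manganese genes 4 rose and 4 fell (50% called), with a median of -0.05, so this list had no common direction. The endolysosomal ATPase ATP13A2 rose most, with 315.6 and 298.1 in COUP-TFII siRNA cells, against 139.0 and 148.8 in control siRNA cells (log2 fold change 1.01 ± 0.11, limma adjusted p = 0.0002). Of the 4 STEAP genes, a family that includes metalloreductases, 3 fell and 1 rose, with log2 fold changes of -0.73 for STEAP2, -0.59 for STEAP1, -0.53 for STEAP4 and 0.59 for STEAP3. STEAP4 was added to the named genes after its values were seen.

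Of 9 genes of citrate metabolism, the pathway that zinc holds back in normal prostate, 2 fell and 0 rose (0 higher at an unadjusted p of 0.05 in limma), with a median log2 fold change of -0.14. Both encode subunits of the mitochondrial isocitrate dehydrogenase that uses NAD. IDH3A had 389.1 and 407.2 in COUP-TFII siRNA cells, against 662.6 and 599.7 in control siRNA cells (log2 fold change -0.64 ± 0.08, limma adjusted p = 0.000551). IDH3G had 1115 and 1041 in COUP-TFII siRNA cells, against 1291 and 1339 in control siRNA cells, a log2 fold change of -0.28 that turned to 0.00055 with housekeeping median centring. Of the citrate list 22.2% were called, near the 23% of all genes.

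Each of the 13 calls was repeated under 17 alternatives of scale, added constant, variance model, probe set choice, threshold and arrays. SLC39A6, SLC30A7 and SLC30A9 passed in all 17, with log2 fold changes from -2.52 to -1.86, from -2.14 to -1.45 and from -1.26 to -0.78. SLC39A8 passed in 16 of 17. MT1F, MT1H and MT1X passed in 15, failing with 1 prior variance for all genes and with the 1.5-fold minimum. The rest were less stable: MT1E and MT2A passed in 11, SLC30A1 and SLC39A11 in 10, SLC39A4 in 9 and SLC39A3 in 8. No call of the 13 changed sign.

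**Figure D5:**
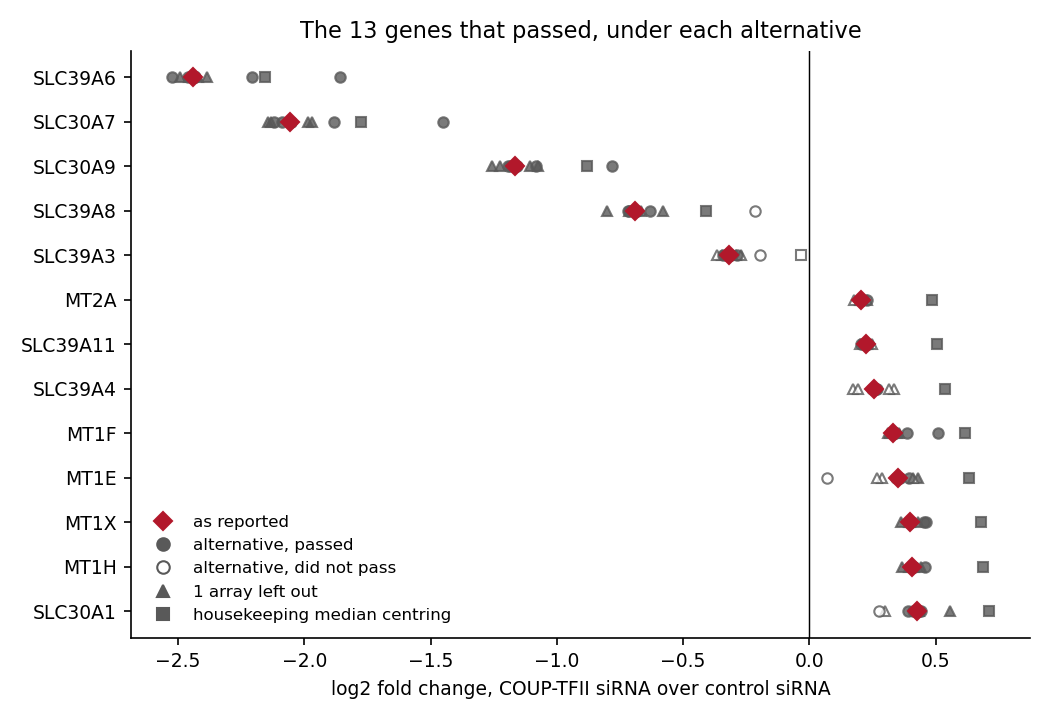
Log2 fold change (x) of the 13 genes that passed, as reported (red diamonds) and under the alternatives other than those of threshold (grey). Grey symbols are filled where the gene passed and open where it did not. Triangles mark fits with 1 array left out, and squares mark housekeeping median centring. The stricter adjusted p and the fold minimum leave the log2 fold change as reported and are not drawn, so failures under them are not shown. SLC39A6, SLC30A7 and SLC30A9 have only filled symbols, and SLC39A3 comes close to 0 at its right end.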

How the data were processed

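PC3 RNA was measured on 4 one-colour Affymetrix arrays, 2 per group. Each deposited value is a linear intensity of 1 probe set, as the authors summarised it. How they summarised and normalized it is not given in the sources used here. Detection calls were not used here, and having 4 arrays limits the precision. Because array medians lay within 3.66% of each other, no scaling was added. The 62 control probe sets were left out. The annotation named 1 gene for 41091 probe sets, several for 1801 and none for 11721. Each gene was represented by its brightest probe set over all 4 arrays, with _x_at set aside where another existed. Levels were not compared between probe sets.

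Groups were compared with limma 3.58.1 in R 4.3.3 (lmFit, eBayes with an intensity trend) on log2(intensity + 16), with no replicate block. P-values were adjusted by Benjamini-Hochberg over 19775 genes, and separately over 54613 probe sets, and called at 0.05. Each gene had 2 residual degrees of freedom, 8.78 after moderation. The scripts were tested on simulated data. The members and lists were chosen with earlier results of these data known. Named in full by plan were members that passed as a gene or probe set, with SLC39A1, SLC30A1, MTF1, MT1X and MT2A. From each other metal list, up to 4 genes that passed were named. Outside that plan, array values are also given for members that did not pass, such as SLC39A9, SLC39A10, SLC30A6 and MT1M. Promoters were searched with Python 3.11.15, and figures drawn with matplotlib 3.10.9. Alternatives covered scaling, added constant, dim genes, prior variance, probe set choice, threshold, a replicate block and leaving out each array. Housekeeping mean centring was added after seeing the data.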

Additional observations from a re-analysis of the deposited data

How the results depend on the processing

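Counts are given as COUP-TFII siRNA higher and lower, with reported values of 2519 and 2039 for all genes, 8 and 5 for the 32 zinc genes, 9 and 10 for their 71 probe sets, and 12 and 9 for the other metal lists. With 1 prior variance they were 754 and 814, 0 and 4 (5 higher at an unadjusted p of 0.05 in limma), 0 and 5 (10 higher unadjusted), and 7 and 2. At an adjusted p of 0.01 all genes gave 1450 and 1318, the zinc genes 5 higher and the other lists 5 lower. With the 1.5-fold minimum all genes gave 914 and 909, the zinc genes 0 higher (9 unadjusted in limma), their probe sets 1 higher and the other lists 5 and 3. Housekeeping median centring gave 7313 and 973 for all genes, 88.3% of calls higher against 55.3%, with 13 zinc genes and 22 probe sets higher, and 28 and 3 in the other lists. Averaging all probe sets gave 1631 genes higher, and 5 and 3 zinc genes. Leaving out dim genes gave 14 lower in the other lists. Without 1 array, which leaves a group with 1 array assumed to vary like the other group, all genes gave 882 to 1222 higher and 886 to 1370 lower, the zinc genes 3 to 4 and 4 to 5, their probe sets 0 to 6 and 5 to 7 (the 0, without control siRNA replicate 2, had 12 higher at an unadjusted p of 0.05 in limma), and the other lists 8 to 10 and 2 to 7. Fewer arrays were then fitted. The size of the housekeeping median centring is set by SDHA and HPRT1, between which that median lies (log2 fold changes 0.20 and -0.77). The cause of the other shifts was not tested.

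The sign turned for several genes that did not pass. MT1G turned to -0.018 with a pseudocount of 64. With 1 array left out, MT1G lay between -0.47 and 0.48, below 0 without replicate 1 of either group. MTF1 turned to 0.19 with housekeeping median centring and to 0.025 with the mean of all probe sets. With 1 array left out, MTF1 lay between -0.21 and 0.015, above 0 without COUP-TFII siRNA replicate 2. Housekeeping median centring also turned SLC30A5 (0.013), SLC39A9 (0.039), SLC39A10 (0.14), SLC39A14 (0.24), SLC30A6 (0.10), SLC30A8 (0.24) and SLC30A2 (0.28). SLC39A14 then passed as higher. With the replicate number as a block, 8 zinc genes were higher and 7 lower, adding SLC30A5 and SLC39A9, and all genes gave 2849 and 2277. Deviations of same-numbered arrays correlated at 0.0165, which shows no pairing by number but cannot exclude it. The labels do not say whether same-numbered arrays were paired. With _x_at probe sets allowed, 9 were higher, adding MT1G, and 7 lower. Centring on the housekeeping mean, added after seeing the data, gave 8 and 6.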

Other observations

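A probe set of MT1HL1, a metallothionein sequence outside the 32 genes, was chosen after its values were seen. It read 6287 and 6588 in COUP-TFII siRNA cells, against 4693 and 5046 in control siRNA cells (log2 fold change 0.40 ± 0.05, limma adjusted p = 0.00332 over all probe sets), and it too carries the _x_at mark. MT3, the metallothionein of brain, had 35.0 and 38.2 in COUP-TFII siRNA cells, against 34.1 and 47.4 in control siRNA cells, and MT4, that of squamous epithelium, had 13.5 and 11.3 in COUP-TFII siRNA cells, against 5.81 and 11.0 in control siRNA cells. Neither passed.

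Of 12 genes used as housekeeping references, 2 rose and 2 fell (33.3%), near the 34.8% called among all genes of mean intensity at least 32. The 12 include PPIA, represented by a dim probe set with 14.2 and 5.91 in COUP-TFII siRNA cells, against 1 and 11.0 in control siRNA cells. HPRT1, an enzyme of purine salvage, averaged 1278 ± 52 in COUP-TFII siRNA cells and 2184 ± 1.9 in control siRNA cells (SD, n = 2 each; log2 fold change -0.77), and POLR2A, the large subunit of RNA polymerase II, averaged 381.6 ± 42.6 in COUP-TFII siRNA cells and 178.2 ± 27.5 in control siRNA cells (SD, n = 2 each; log2 fold change 1.04).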
